A study of Mus musculus with 4 samples.

Results

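Matricellular glycoproteins are secreted proteins that sit in the extracellular matrix without being its main load-bearing fibres. The set described here held 10 genes, Tnc, Tnxb, Postn, Thbs1, Thbs2, Sparc, Cthrc1, Spp1, Ctgf and Cyr61. They were taken by symbol from the deposited gene tables, which list 27998 genes, and all 10 were found in all 4 libraries. The genes were followed through single cells of 2 pancreatic tumors of KPC mice.

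KPC mice carry the alleles KrasLSL-G12D/+ and Trp53LSL-R172H/+ with Pdx1-Cre, here on a C57BL/6J background, and the driver recombines both alleles in the pancreatic epithelial lineage, so the stroma is not the targeted compartment. Each tumor was dissociated and sorted into a sorted CAF fraction (cancer-associated fibroblasts, gated as DAPI-CD45-CD31-EpCAM-PDPN+) and an all live fraction (DAPI-), which gave 2 sorted CAF and 2 all live libraries. All 4 libraries share genotype, background and tissue, and no tumor-free pancreas was part of the comparison. The listed stain names antibodies to CD31, CD45, PDPN and PDGFRa and none to EpCAM, and the age of the mice was not given in the labels used here. The series' design mentions 8 samples, some of them technical replicates, and these could not be told apart here. Each library counted as 1 sample and the tumor was the replicate. In fits without a tumor term, p-values rest on the spread between 2 tumors within each group. The tests between cell classes share 1 estimate of that spread over 4 classes. Fits with tumor as a block take out the difference common to a tumor's sums, so their p-values measure the spread that remains.

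Tenascins, thrombospondins, periostin, SPARC, osteopontin (Spp1) and the CCN proteins (Ctgf is Ccn2 and Cyr61 is Ccn1 in the newer nomenclature) bind integrins, other cell-surface receptors, collagens and growth factors, and change how cells attach, spread and read matrix signals. They are typically low in quiescent adult tissue and are known to be induced in wound repair, fibrosis and tumor stroma. In pancreatic cancer the stroma is rich in fibroblasts, which occur in states described as contractile (myofibroblastic) and cytokine-producing (inflammatory), while osteopontin is also known as a product of epithelial cells and macrophages.

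The 4 libraries held 8282 barcodes and 85230726 unique molecular identifiers (UMIs, each standing for 1 captured transcript molecule). Library totals ran between 14972652 and 30950993 UMIs, and median UMIs per barcode between 3287 and 13764, with all live 2 the shallowest. Pairs of libraries shared 4 to 6 barcode sequences. After filters 7832 cells were kept and clustered without the 10 genes and the lists of related genes, so that no cell class was defined by the 10 genes or the lists. The sorted CAF 1 library did not hold mainly fibroblasts: 792 of its 1386 kept cells were ductal epithelial-like and 174 were fibroblast-like, whereas sorted CAF 2 held 113 ductal epithelial-like and 878 fibroblast-like cells among 1210. Results are given both over whole libraries and by cell class. Levels are CPM, a gene's UMIs in a sum of cells scaled to the same total for every sum, and Krt18, a ductal keratin, stood at 6089.8 CPM in the ductal epithelial-like cells of sorted CAF 1.

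Within the fibroblast-like cells 6 subclusters were found. Subclusters 2 (Cxcl13, Cxcl12; 213 cells) and 4 (Sema3c, Cd55; 186 cells) carried 9 and 6 of the inflammatory fibroblast markers and are called inflammatory-like. Subcluster 0 (353 cells) carried 5 of the myofibroblast markers, and its Acta2 stood at 1107 and 1937 CPM in sorted CAF 1 and 2 and at 986 and 1720 CPM in all live 1 and 2, against 63.9 and 79.3 CPM in the Sema3c inflammatory-like cells of sorted CAF 1 and 2. Its 10 leading genes held none of the myofibroblast list but Ctrb1, an acinar gene, and Cspg4, a pericyte marker, so it is not named as a cell type and is called here by another leading gene, the Serpine2 subcluster; the comparison had been planned as myofibroblast-like against inflammatory-like. Ctrb1 was at 153 CPM in its sorted CAF 2 cells and at 0 in sorted CAF 1, against 134454 and 119864 CPM in the acinar-like cells of sorted CAF 2 and all live 2, and the pericyte marker Rgs5 was at most 3.20 CPM, against 3962 CPM in pericyte-like cells. The 3 remaining subclusters had too few markers for a name and are called by leading genes: Gpnmb (185 cells, nearly all of tumor 1), Sfrp1 (238 cells, nearly all of tumor 2) and Cdc20 (130 cells, with the proliferation gene Mki67 among its leading genes).

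The sequences just upstream of the genes that differed between fibroblast states, and of Cyr61 as the textbook target of the YAP and TEAD pathway, are shown to place the transcripts in the genome. RefSeq promoter windows (GRCm38.p6) were available for 7 of the 10 genes by symbol, those of Thbs1, Cthrc1 and Ctgf not being matched, and each run covers the 250 bases before the RefSeq start, 5′ to 3′ on the gene's strand. Capitals mark a match, on either strand, to GGAATG, the core bound by TEAD factors, or to TGANTCA, the core bound by AP-1.
Tnc (chr4:64047016-64047265, minus strand): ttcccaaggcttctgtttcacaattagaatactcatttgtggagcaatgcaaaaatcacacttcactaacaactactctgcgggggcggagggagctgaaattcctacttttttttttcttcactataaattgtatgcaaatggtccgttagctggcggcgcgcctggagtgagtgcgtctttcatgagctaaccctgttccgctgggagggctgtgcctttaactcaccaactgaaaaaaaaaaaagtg
Spp1 (chr5:104434861-104435110, plus strand): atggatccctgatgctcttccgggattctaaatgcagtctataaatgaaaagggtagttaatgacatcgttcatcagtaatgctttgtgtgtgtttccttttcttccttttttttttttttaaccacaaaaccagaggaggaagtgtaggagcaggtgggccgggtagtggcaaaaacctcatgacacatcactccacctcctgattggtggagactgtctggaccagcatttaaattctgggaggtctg
Thbs2 (chr17:14694263-14694512, minus strand): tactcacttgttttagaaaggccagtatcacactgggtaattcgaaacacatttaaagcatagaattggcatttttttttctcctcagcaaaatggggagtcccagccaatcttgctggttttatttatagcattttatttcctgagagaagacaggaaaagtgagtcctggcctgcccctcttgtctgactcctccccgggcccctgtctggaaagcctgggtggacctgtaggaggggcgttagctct
Tnxb (chr17:34670285-34670534, plus strand): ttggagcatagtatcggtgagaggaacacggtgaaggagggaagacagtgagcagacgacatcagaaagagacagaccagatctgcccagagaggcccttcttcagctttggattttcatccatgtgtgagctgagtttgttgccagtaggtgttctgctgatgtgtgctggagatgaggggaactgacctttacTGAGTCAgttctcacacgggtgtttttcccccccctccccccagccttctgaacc
Cyr61 (chr3:145649986-145650235, minus strand): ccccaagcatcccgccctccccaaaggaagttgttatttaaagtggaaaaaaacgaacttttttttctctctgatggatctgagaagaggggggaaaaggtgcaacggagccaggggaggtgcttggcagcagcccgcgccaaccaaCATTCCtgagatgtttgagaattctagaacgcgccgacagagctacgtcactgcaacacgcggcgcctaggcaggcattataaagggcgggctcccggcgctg
The Tnxb window held 1 AP-1 match and the Cyr61 window 1 TEAD match on the opposite strand. The windows of Tnc, Spp1 and Thbs2 held neither motif, and none of the 5 held a CArG box. Among 32851 RefSeq windows of the same length, 12.6% held GGAATG, 6.75% held TGANTCA and 1.47% held a CArG box, so a match describes the letters and is no evidence of binding.

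The cells that held the transcripts differed between members. Fibroblast-like cells held most UMIs of Postn (83.7% and 91.8% of the library's Postn UMIs in sorted CAF 1 and 2, 95.9% and 76.3% in all live 1 and 2) and of Thbs2 (90.0% and 95.3% in sorted CAF, 93.2% and 83.8% in all live). At the other end, fibroblast-like cells held 2.05% and 21.3% of the Spp1 UMIs in sorted CAF 1 and 2 and 4.53% and 0.858% in all live 1 and 2. Ductal epithelial-like cells and an unnamed cluster led by Npy (515 cells, nearly all of tumor 1, where Krt8, Krt18 and Krt19 summed to 11591 and 10656 CPM in sorted CAF 1 and all live 1) held most Spp1 UMIs of tumor 1, and macrophage or monocyte-like cells held 51.4% of those in all live 2.

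**Figure D1:**
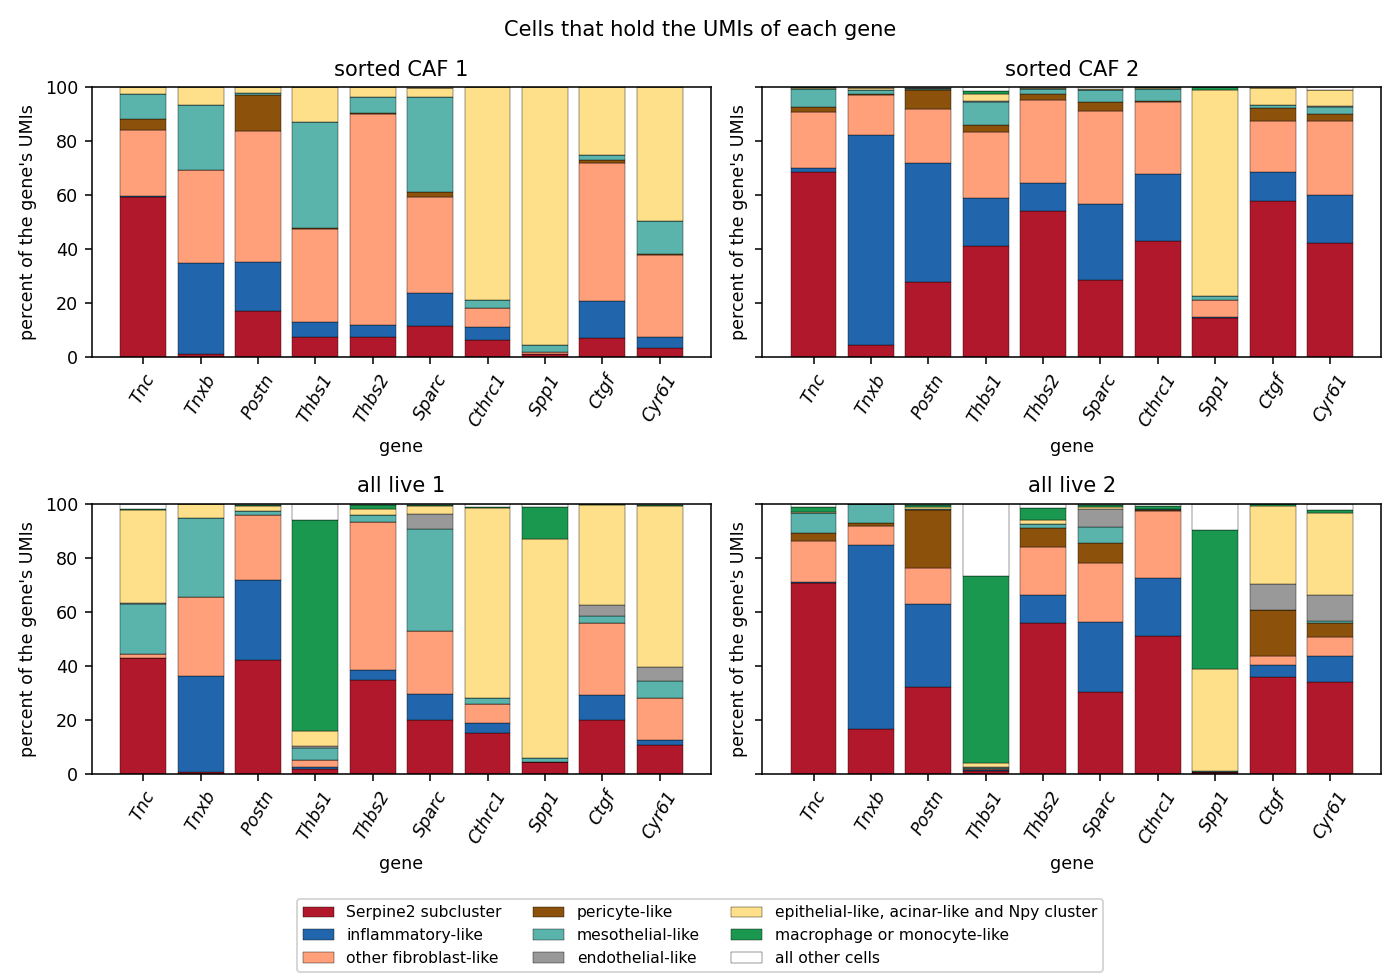
Percent of each gene's UMIs (y axis) held by each cell class in the 4 libraries (one panel each; genes on the x axis, classes stacked in color). Postn and Thbs2 lie mainly in fibroblast-like cells in all 4 libraries, Spp1 mainly in epithelial and macrophage cells, and Thbs1 in macrophage or monocyte-like cells in the 2 all live libraries (78.2% and 69.4%).

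**Figure D2:**
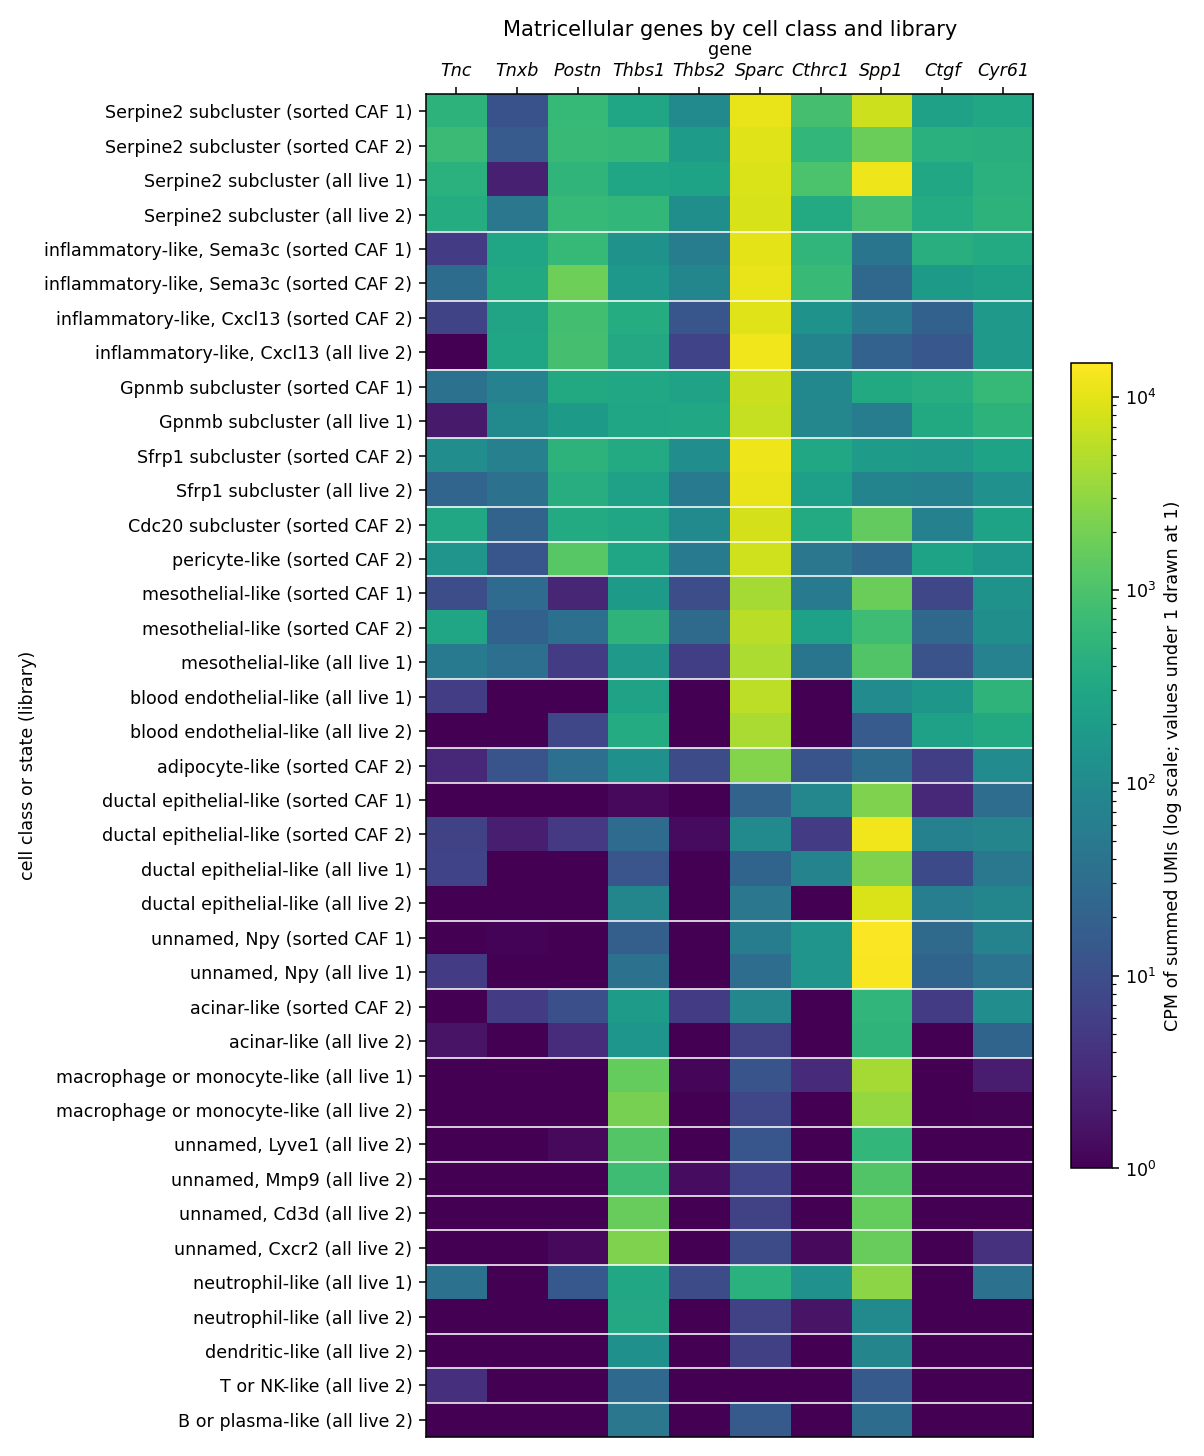
Level of each gene (columns) in each cell class and library of at least 20 cells (rows), as CPM of summed UMIs on a logarithmic color scale. Sparc is high through all fibroblast-like subclusters, Tnc is high in the Serpine2 subcluster and low in the inflammatory-like subclusters, and Tnxb shows the opposite order.

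Fibroblast-like cells were first set against 3 other classes. UMIs were summed per class and tumor and tested with edgeR's quasi-likelihood test over 12524 genes in 1 joint fit, with a gene called at a Benjamini-Hochberg adjusted p under 0.05. Against ductal epithelial-like cells 8 of the 10 members were higher in fibroblast-like cells and none was lower, where 23.4% of all genes tested were called, 14% higher and 9.4% lower. Against macrophage or monocyte-like cells 8 were higher and Thbs1 was lower, with 27.3% of all genes called, 16.4% higher and 10.9% lower. Against mesothelial-like cells, the lining cells of the abdominal cavity, edgeR called no member (0.798% of all genes called, 0.359% higher and 0.439% lower). Before adjustment 5 of the 10 had p under 0.05, as had 10.2% of all genes tested. DESeq2 called 5 members, all higher, and 3.43% of all genes, 1.69% higher. With tumor as a block, where 1.96% of all genes were called (0.966% higher, 0.998% lower), Postn (adjusted p = 0.00912) and Thbs2 (adjusted p = 0.0495) were called higher in fibroblast-like than in mesothelial-like cells. The block left the members' calls against ductal and macrophage cells as they were (30.5% and 33.2% of all genes called with it).

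Fibroblast states were then compared, the Serpine2 subcluster against the 2 inflammatory-like subclusters together, in sums per tumor (56 and 297 cells of tumor 1 and tumor 2 in the Serpine2 subcluster, 57 and 342 inflammatory-like cells). Of 9663 genes 178 were called (1.84%), 62 higher (0.642%) and 116 lower (1.2%). Tnc, Spp1 and Thbs2 were higher in the Serpine2 subcluster and Tnxb was lower, 4 of 10 members. The other 6 did not pass the test. The summed level of the 20 dissociation and immediate early genes, which respond to tissue handling, was lower in the Serpine2 subcluster, although 1 of 19 tested passed the test. It lay between 6688 and 7781 CPM in the 4 libraries' Serpine2 cells and between 10063 and 12973 CPM in the inflammatory-like sums, and its part in the members' differences was not tested. With tumor as a block 8 members were called (13.3% of all genes were then called, 5.91% higher and 7.43% lower), the additional ones being Thbs1 (log2 0.71, adjusted p = 0.0402), Cthrc1 (log2 0.71, adjusted p = 0.0417), Ctgf (log2 1.07, adjusted p = 0.00465) and Cyr61 (log2 0.93, adjusted p = 0.00306), all higher. Of these, Ctgf was not higher in both tumors. Its ratio was 0.860 in tumor 1 (counting interval 0.687 to 1.08) and 4.85 in tumor 2.

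**Figure D3:**
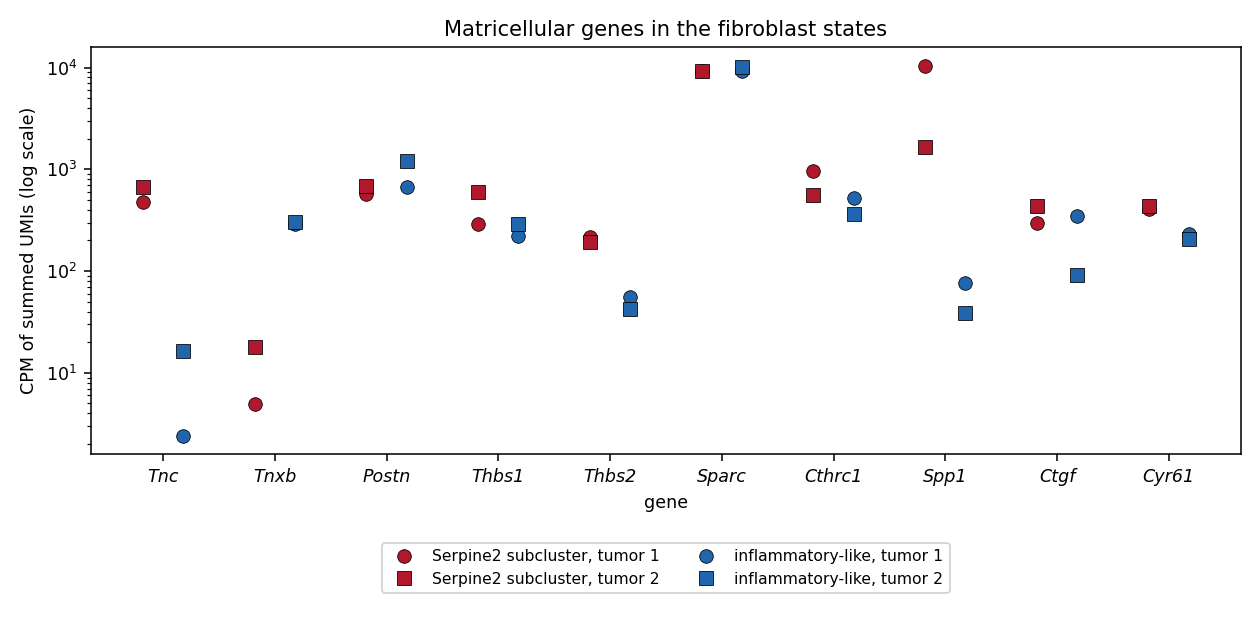
CPM of summed UMIs (log scale) of each gene in the Serpine2 subcluster (red) and the inflammatory-like cells (blue), with a circle for tumor 1 and a square for tumor 2. The red and blue points of Tnc, Spp1, Thbs2 and Tnxb stand apart in both tumors, while those of Sparc lie close together.

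Members are taken in turn below, with gene coordinates from the GENCODE annotation of GRCm38. Tenascin-C (Tnc, ENSMUSG00000028364, chr4:63959785-64047015, minus strand) is a large hexameric protein that loosens cell attachment and is known as a mark of activated stroma. In the Serpine2 subcluster Tnc was at 506 and 700.3 CPM in sorted CAF 1 and 2 and at 459 and 390.0 CPM in all live 1 and 2. In the Sema3c inflammatory-like cells it was at 5.33 CPM (1 UMI) and 29.8 CPM in sorted CAF 1 and 2, and in the Cxcl13 inflammatory-like cells at 7.21 CPM in sorted CAF 2 and at 0 of 145353 UMIs in all live 2. The values of the Serpine2 subcluster and the inflammatory-like cells did not overlap. How many of all genes stood apart in this way was not counted, here or for the members below. Per tumor the sums were 473 against 2.40 CPM in tumor 1, a ratio of 197 with a counting interval of 35 to 7798 because the inflammatory-like sum held 1 UMI, and 675 against 16.3 CPM in tumor 2. The difference was 5.46 ± 0.58 on the log2 scale (SE, n = 2 tumors a state; edgeR adjusted p = 0.00547) and was called under every alternative run. A Tnc UMI was seen in 47.8% and 70.9% of Serpine2 cells in sorted CAF 1 and 2 and in 63.6% and 46.5% in all live 1 and 2, against 0.436% and 0.199% of macrophage or monocyte-like cells of all live 1 and 2, which should lack it (median UMIs per cell 7607, 12392.5, 11966 and 6866, against 6636 and 3318). Thinned to 2000 UMIs per cell, the shares were 34.6%, 44.9%, 37.2% and 31.2% in Serpine2 cells, against 0.117% and 0.0964% in the macrophage or monocyte-like cells.

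Among sums of at least 20 cells, Tnc in the other subclusters ran from below every Serpine2 value down to the levels of the inflammatory-like cells. The cycling Cdc20 cells of sorted CAF 2 had 324 CPM and the Sfrp1 cells 111 CPM in sorted CAF 2 and 22.7 CPM (3 UMIs) in all live 2. In all live 2 the 10 Cdc20 cells, under that limit, held 13.3% of the Tnc UMIs and 0.430% of all UMIs. The Serpine2 cells of all live 2 held 70.5% and 2.24%. The Gpnmb cells of tumor 1 had 35.8 CPM in sorted CAF 1 and 1.98 CPM (1 UMI) in all live 1. Against ductal epithelial-like cells, fibroblast-like cells had 137 against 3.83 CPM in tumor 1 and 305 against 3.95 CPM in tumor 2 (log2 5.72 ± 0.996, adjusted p = 0.00553). The ductal Tnc UMIs of tumor 1 were few and uneven, with 136 UMIs in 17 of 815 cells of all live 1, of which 5 cells held 115, and 1 UMI in the 792 ductal cells of sorted CAF 1. Mesothelial-like cells were similarly uneven: in sorted CAF 2, 5 of 54 cells held 199 of 239 Tnc UMIs, and fibroblast-like and mesothelial-like sums were close in tumor 2 (305 and 264 CPM) but not in tumor 1 (137 and 33.0 CPM). Macrophage or monocyte-like sums held 2 and 4 Tnc UMIs (0.599 and 0.690 CPM; log2 8.13 ± 1.20, adjusted p = 0.00194).

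Tenascin-X (Tnxb, ENSMUSG00000033327, chr17:34670535-34719815, plus strand) is the tenascin of loose connective tissue that helps to space and hold collagen fibrils. Its order across fibroblast states was the reverse of that of Tnc. In the Serpine2 subcluster Tnxb was at 11.2 CPM (2 UMIs) and 15.7 CPM in sorted CAF 1 and 2 and at 2.37 CPM (1 UMI) and 44.8 CPM in all live 1 and 2. In Sema3c inflammatory-like cells it was at 293 and 343 CPM in sorted CAF 1 and 2, and in Cxcl13 inflammatory-like cells at 277 CPM in sorted CAF 2 and 289 CPM in all live 2. The lowest inflammatory-like value was above the highest Serpine2 value, and the 4 inflammatory-like values lay close together. The tumor sums were 4.99 CPM (3 UMIs) against 288 CPM in tumor 1, a ratio of 0.0173 with a counting interval of 0.00352 to 0.0518, and 18 against 304 CPM in tumor 2. The log2 difference was -4.48 ± 0.49 (edgeR adjusted p = 0.00635), called under every alternative run. Pericyte-like cells of sorted CAF 2 (58 cells) had 13.2 CPM, close to the Serpine2 cells of that library.

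Tnxb was not detected in macrophage or monocyte-like cells of either tumor, and its level in fibroblast-like cells was at least 107-fold higher in tumor 1 and at least 219-fold higher in tumor 2, taking a floor of 3 counts per tumor sum. Fibroblast-like sums were at 96.5 and 113 CPM in tumor 1 and tumor 2, against 0.392 and 1.32 CPM in ductal epithelial-like cells and 31.3 and 24.1 CPM in mesothelial-like cells. Against ductal cells the log2 difference was 7.24 ± 0.60 (adjusted p = 0.000908), and against mesothelial-like cells 1.97 ± 0.46 (adjusted p = 0.126), which did not pass the test. Mesothelial-like cells held 24.3% and 29.5% of the Tnxb UMIs of sorted CAF 1 and all live 1, the 2 libraries with most mesothelial-like cells.

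Osteopontin (Spp1, ENSMUSG00000029304, chr5:104435118-104441050, plus strand) is a secreted phosphoprotein that binds integrins and CD44. In the Serpine2 subcluster it was at 7210.2 and 1708 CPM in sorted CAF 1 and 2 and at 11740.4 and 885 CPM in all live 1 and 2, with both libraries of tumor 1 above both of tumor 2. In Sema3c inflammatory-like cells it was at 42.6 and 26.2 CPM in sorted CAF 1 and 2, and in Cxcl13 inflammatory-like cells at 49.9 CPM in sorted CAF 2 and 20.6 CPM (3 UMIs) in all live 2. The groups did not overlap, and the lowest Serpine2 value was far above the highest inflammatory-like one. By tumor the sums were 10399 against 76.9 CPM and 1642 against 38.7 CPM (log2 6.76 ± 0.91, edgeR adjusted p = 0.0135). The call was lost without the inflammatory-like sum of tumor 1 (adjusted p = 0.0827), with cells of high doublet score kept (adjusted p = 0.130) and with finer fibroblast clustering (adjusted p = 0.151), with the log2 difference between 3.87 and 7.19 in these 3 settings. The annotated gene Gm42793 overlaps Spp1 on the same strand, so reads shared by both could have been counted for either.

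Spp1 was unevenly spread over the Serpine2 cells. The median cell had 13 and 1 Spp1 UMIs in sorted CAF 1 and 2 and 42 and 1 in all live 1 and 2, while the highest cell had 314, 664, 1468 and 86. The highest 10% of the cells held 73.0% of the Spp1 UMIs in sorted CAF 2, and 33.5% of its 254 cells had none. Cells with 100 or more Spp1 UMIs per 10000 made up 30.4% and 3.94% of the Serpine2 cells of sorted CAF 1 and 2, 33.3% of those of all live 1 and none of the 43 of all live 2. Keratin UMIs moved with Spp1: Krt8, Krt18 and Krt19 summed to 185 and 21.5 CPM in the Serpine2 cells of sorted CAF 1 and 2 and to 1570 and 9.59 CPM in all live 1 and 2, highest in the library with the most Spp1. Per keratin UMI the Serpine2 cells had 38.9 and 79.3 Spp1 UMIs in sorted CAF 1 and 2 and 7.48 and 92.3 in all live 1 and 2. These ratios rest on 33, 77, 664 and 3 keratin UMIs in that order. Ductal epithelial-like cells of the same libraries had 0.155 and 2.33, and 0.161 and 1.07. Macrophage or monocyte-like cells of all live 1 and 2 had 15.03 and 238.3, so the ratio does not set the Serpine2 cells apart from them. Lyz2 stood at 99.3 and 412 CPM in the Serpine2 cells of all live 1 and 2, against 16180 and 13512 CPM in macrophage or monocyte-like cells. In Serpine2 cells with no keratin and no Lyz2 UMI, Spp1 stood at 1942 CPM in sorted CAF 2 (177 cells) and 566 CPM in all live 2 (25 cells), against 25.4 and 25.2 CPM in the Cxcl13 and Sema3c inflammatory-like cells of sorted CAF 2 chosen in the same way. Only 7 and 2 such Serpine2 cells were left in sorted CAF 1 and all live 1.

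**Figure D4:**
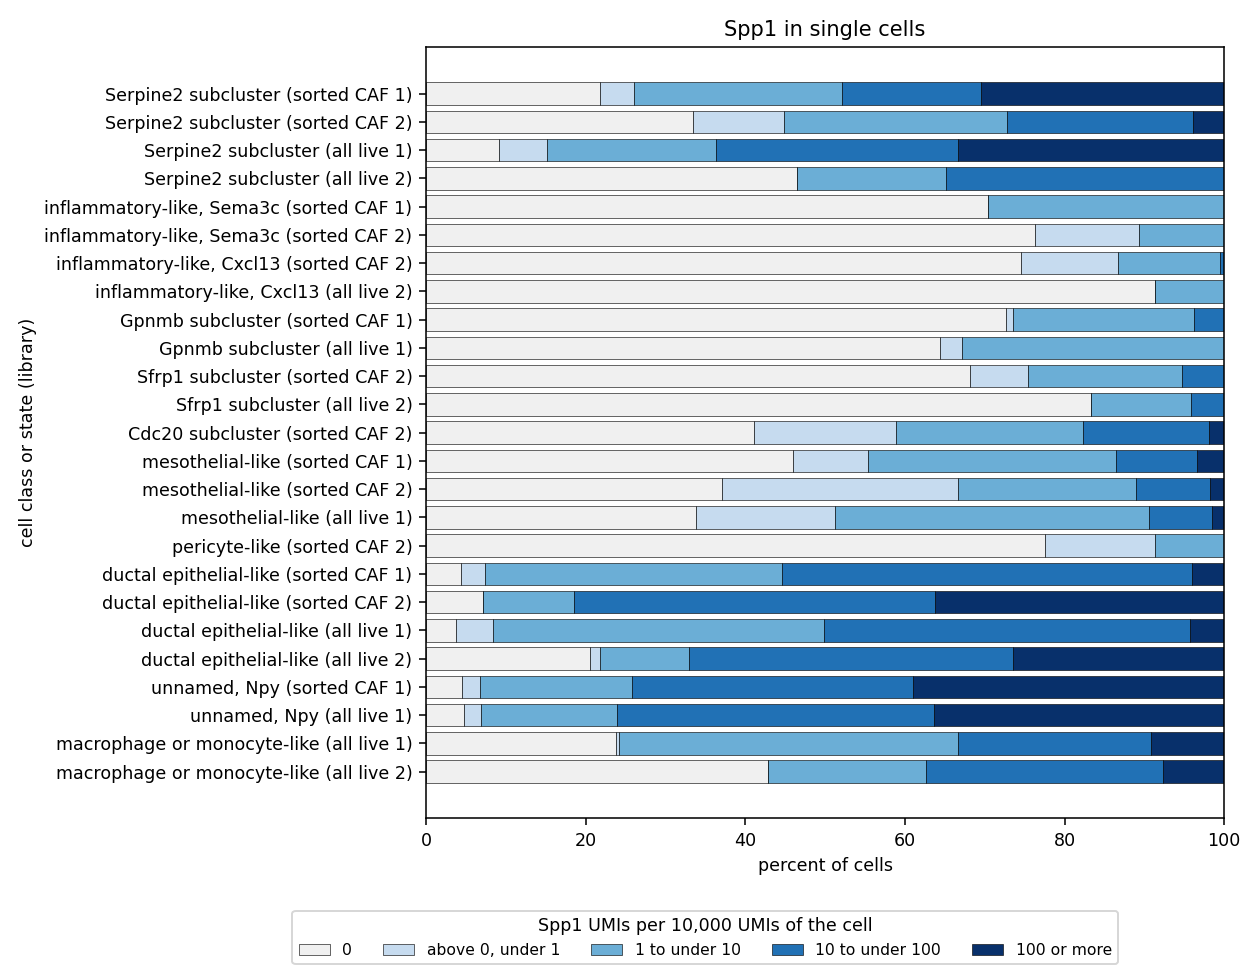
Percent of cells (x axis) by Spp1 UMIs per 10,000 UMIs of the cell, in 5 ranges from 0 (lightest) to 100 or more (darkest), in rows for the fibroblast subclusters, mesothelial, pericyte, ductal and macrophage classes and the Npy cluster. The dark ranges are wide in ductal and Npy cells, present in the Serpine2 subcluster and almost missing in inflammatory-like cells.

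Against the epithelium and macrophages, Spp1 was not called for fibroblast-like cells as a whole. Fibroblast-like sums were 2987 and 816 CPM in tumor 1 and tumor 2, against 2303 and 10748 CPM in ductal epithelial-like cells (log2 -1.81 ± 0.75, adjusted p = 0.121). The direction differed between tumors, but the ductal sums were made of different clusters: 787 and 619 of the tumor 1 cells lay in clusters 0 and 2, which held no tumor 2 cell. In ductal cluster 1, with 169 cells of tumor 1 and 149 of tumor 2, Spp1 was at 2159 and 12366 CPM, and in ductal cluster 10, with 32 and 134 cells, at 6891 and 7391 CPM. Without the ductal sum of tumor 1 it was called lower in fibroblast-like cells (log2 -2.47, adjusted p = 0.0430). Macrophage or monocyte-like cells were at 4110.0 and 3327 CPM (log2 -1.27 ± 0.74, adjusted p = 0.264), and mesothelial-like cells at 1416 and 711 CPM (log2 0.86 ± 0.73, adjusted p = 0.961). The Npy cluster of tumor 1 was at 14418 CPM in sorted CAF 1 and 13441 CPM in all live 1, above the ductal cells of the same libraries (2305 and 2300.5 CPM), and each is 1 tumor. The cycling Cdc20 fibroblasts of sorted CAF 2 had 1488 CPM, but 1 cell held 973 of the 2266 UMIs in its 107 cells and the median cell had 1.

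Thrombospondins 1 and 2 are trimeric matrix proteins known as inhibitors of angiogenesis, and thrombospondin-1 is also known to activate latent TGF-beta. Thbs2 (ENSMUSG00000023885, chr17:14665500-14694235, minus strand) was at 101 and 200.3 CPM in the Serpine2 cells of sorted CAF 1 and 2 and at 265 and 121 CPM in those of all live 1 and 2. In Sema3c inflammatory-like cells it was at 58.6 and 82.2 CPM in sorted CAF 1 and 2, and in Cxcl13 cells at 13.3 CPM in sorted CAF 2 and 6.88 CPM (1 UMI) in all live 2. Among sums of at least 20 cells the groups did not overlap but lay closer than for Tnc. The 15 Sema3c cells of all live 2, left out by that limit, held 8.82% of the library's Thbs2 UMIs and 0.418% of all its UMIs. That puts them at about the level of the Serpine2 cells of sorted CAF 1. By tumor the sums were 216 against 55.3 CPM and 194 against 42.6 CPM (log2 2.06 ± 0.33, edgeR adjusted p = 0.0201). The Gpnmb cells of tumor 1, with 251 CPM in sorted CAF 1 and 306 CPM in all live 1, were above the Serpine2 cells of the same libraries (101 and 265 CPM). The Thbs2 call was lost without the inflammatory-like sum of tumor 1 (adjusted p = 0.0980), with cells of high doublet score kept (0.0960), with finer fibroblast clustering (0.117) and in cells with no keratin and no Lyz2 UMI (0.241, where tumor 1 had 9 Serpine2 and 17 inflammatory-like cells). The last setting was chosen after seeing the data.

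Thbs2 was low in epithelial and macrophage cells. Fibroblast-like sums were at 215 and 116 CPM, against 0.308 and 1.05 CPM in ductal epithelial-like cells (log2 8.24 ± 0.85, adjusted p = 0.000949), 1.20 and 0.517 CPM in macrophage or monocyte-like cells (log2 7.39 ± 0.84, adjusted p = 0.00068) and 7.73 and 26.2 CPM in mesothelial-like cells. Thbs1 (ENSMUSG00000040152, chr2:118111876-118127133, plus strand) had another distribution, with 281 and 406 CPM in fibroblast-like sums, against 7.42 and 50.8 CPM in ductal epithelial-like cells (log2 3.62 ± 0.85, adjusted p = 0.0182, but 0.0834 without the fibroblast-like sum of tumor 2) and 1555 and 2061 CPM in macrophage or monocyte-like cells (log2 -2.65 ± 0.81, adjusted p = 0.0424). The lower level than in macrophages was seen in both tumors, but the call was lost when any of the 4 fibroblast-like or macrophage sums was left out (adjusted p between 0.0747 and 0.207) and with cells of high doublet score kept (0.0647). Mesothelial-like sums of Thbs1, at 186 and 540.0 CPM, lay below the fibroblast-like sum in tumor 1 and above it in tumor 2. An unnamed cluster of all live 2 led by Cxcr2 and Csf3r, genes of neutrophils, had 2369 CPM. This cluster carried 10 markers of the macrophage or monocyte list and 7 of the neutrophil list. The named neutrophil-like cells of all live 2 held 1.13% of that library's Thbs1 UMIs and 4.24% of all its UMIs. An unnamed Lyve1 cluster with macrophage markers had 1162 CPM.

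Within fibroblasts, Thbs1 was at 287 and 596 CPM in the Serpine2 cells of sorted CAF 1 and 2 and at 296 and 582 CPM in those of all live 1 and 2. The Sema3c inflammatory-like cells had 138 and 169 CPM in sorted CAF 1 and 2 and the Cxcl13 cells 386 CPM in sorted CAF 2 and 330.2 CPM in all live 2, so the groups overlapped. The difference of 0.74 ± 0.40 on the log2 scale did not pass the test (edgeR adjusted p = 0.583). The tumor sums were 293 against 221 CPM and 595 against 292 CPM. The antisense-strand gene Gm29233 overlaps Thbs1 in the annotation, and the counting of strand was not given in the sources used here.

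Periostin (Postn, ENSMUSG00000027750, chr3:54361109-54391037, plus strand) is a fasciclin-domain protein that promotes collagen crosslinking and binds integrins. It was spread over all fibroblast subclusters. Serpine2 cells had 629 and 688 CPM in sorted CAF 1 and 2 and 542 and 623 CPM in all live 1 and 2. Sema3c inflammatory-like cells had 623 and 1781 CPM in sorted CAF 1 and 2 and Cxcl13 cells 811 CPM in sorted CAF 2 and 881 CPM in all live 2, so the groups overlapped (log2 -0.65 ± 0.39, edgeR adjusted p = 0.640). The Gpnmb cells were lowest, with 343 CPM in sorted CAF 1 and 190 CPM in all live 1. Pericyte-like cells of sorted CAF 2, at 1220.0 CPM, exceeded the fibroblast-like cells of the same library at 762 CPM, a ratio of 1.60 with a counting interval of 1.48 to 1.74 and no replicate. Fibroblast-like sums of 445 and 755 CPM stood against 0.504 and 3.16 CPM in ductal epithelial-like cells (log2 8.71 ± 1.22, adjusted p = 0.00247), 0.599 CPM (2 UMIs) and 1.21 CPM in macrophage or monocyte-like cells (log2 9.02 ± 1.27, adjusted p = 0.00157) and 4.04 and 30.3 CPM in mesothelial-like cells (log2 5.33 ± 1.05, adjusted p = 0.0684).

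SPARC (Sparc, ENSMUSG00000018593, chr11:55394500-55423183, minus strand) binds collagen and calcium and helps collagen secretion and assembly. Its level was high in every fibroblast subcluster, with the Gpnmb cells lowest at 6843 CPM in sorted CAF 1 and 6372 CPM in all live 1. Serpine2 cells had 10959 and 9303 CPM in sorted CAF 1 and 2 and 8590.1 and 8443 CPM in all live 1 and 2, while Sema3c inflammatory-like cells had 10283 and 11099 CPM in sorted CAF 1 and 2 and Cxcl13 cells 9406 CPM in sorted CAF 2 and 12232 CPM in all live 2. The ranges overlapped, and the difference of -0.12 ± 0.33 on the log2 scale was not called (edgeR adjusted p = 0.969). Outside the fibroblasts, blood endothelial-like cells had 5827 and 4404 CPM in all live 1 and 2, pericyte-like cells of sorted CAF 2 had 7475 CPM, and mesothelial-like sums were at 4340.3 and 5534 CPM, against 8183 and 9889 CPM in fibroblast-like sums. The fibroblast-like to mesothelial-like difference of 0.93 ± 0.49 was not called (adjusted p = 0.669). Ductal epithelial-like cells had 22.1 and 78.0 CPM and macrophage or monocyte-like cells 12.3 and 8.80 CPM, both called lower than fibroblast-like cells (log2 difference of fibroblast-like cells 7.50 ± 0.65, adjusted p = 0.000837, and 9.49 ± 0.70, adjusted p = 0.000219).

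Cthrc1 (ENSMUSG00000054196, chr15:39076932-39087121, plus strand) encodes a secreted protein with a collagen triple helix repeat that is known from wound healing and fibrosis. It was at 894 and 576 CPM in Serpine2 cells of sorted CAF 1 and 2 and at 1003 and 355 CPM in those of all live 1 and 2. Sema3c inflammatory-like cells had 564 and 687 CPM in sorted CAF 1 and 2 and overlapped with them, while Cxcl13 cells had 132 CPM in sorted CAF 2 and 75.7 CPM in all live 2 (log2 0.76 ± 0.37 for both inflammatory-like subclusters, edgeR adjusted p = 0.515). The 2 inflammatory-like subclusters had different values of Cthrc1 and, in sorted CAF 2, of Tnc, Thbs2, Postn, Thbs1 and Ctgf, a comparison with no replicate test.

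Ductal Cthrc1 had different levels in the 2 tumors, whose ductal cells lay largely in different clusters. Ductal epithelial-like cells of tumor 1 had 87.3 CPM in sorted CAF 1 and 72.4 CPM in all live 1, with at least 1 UMI in 57.7% of 792 and 56.7% of 815 cells, and these cells held 56.9% and 50.5% of the libraries' Cthrc1 UMIs. Ductal cells of tumor 2 had 5.30 CPM in sorted CAF 2 and no UMI in 170 cells of all live 2, where 3 counts would be 1.96 CPM. The ductal cells of sorted CAF 1 and all live 1 were deeper (median 20549.5 and 22104 UMIs) than those of sorted CAF 2 and all live 2 (16715 and 7342.5). In macrophage or monocyte-like cells of all live 1, with a median of 6636 UMIs, 2.18% of cells had a Cthrc1 UMI. Thinned to 2000 UMIs per cell, the ductal shares were 13.9% and 12.8% in sorted CAF 1 and all live 1, and 1.10% and 0% in sorted CAF 2 and all live 2 (2 shallower cells of all live 2 left out), against 0.592% in the macrophage or monocyte-like cells of all live 1. The 5 richest ductal cells held 6.77% and 6.86% of the ductal Cthrc1 UMIs of sorted CAF 1 and all live 1, so the signal was spread over many cells. In ductal clusters 0 and 2, with cells of tumor 1 only, Cthrc1 was at 59.3 and 114 CPM. In ductal cluster 1, shared by the tumors, it was at 58.3 CPM in tumor 1 and 4.68 CPM (12 UMIs) in tumor 2, and in ductal cluster 10 at 12.7 CPM (5 UMIs) in tumor 1 and 0 of 1234536 UMIs in tumor 2. Fibroblast-like sums of 488 and 416 CPM stood against 79.3 and 3.16 CPM in ductal sums and did not pass the test (log2 3.18 ± 1.35, adjusted p = 0.129; without the ductal sum of tumor 1 it was 7.21, adjusted p = 0.0100). Macrophage or monocyte-like sums were at 3.59 and 0.517 CPM (3 UMIs) and were called lower (log2 difference of fibroblast-like cells 7.65 ± 1.74, adjusted p = 0.0128, but 0.0963 without the macrophage sum of tumor 2). Each tumor gives 1 value of the ductal level, so the difference between tumors has no replicate check.

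The CCN proteins Ctgf and Cyr61 bind integrins and are textbook targets of YAP, TEAD and TGF-beta signalling. Ctgf (ENSMUSG00000019997, chr10:24595442-24598683, plus strand) was at 247 and 447 CPM in Serpine2 cells of sorted CAF 1 and 2 and at 322 and 374 CPM in those of all live 1 and 2. It was at 437 and 187 CPM in Sema3c inflammatory-like cells of sorted CAF 1 and 2, and at 20 CPM in sorted CAF 2 and 13.8 CPM (2 UMIs) in all live 2 in Cxcl13 cells. The Serpine2 and Sema3c ranges overlapped and the Cxcl13 cells lay below both. By tumor the state sums were 299.6 against 348 CPM and 441 against 90.8 CPM, of opposite direction (log2 0.80 ± 0.54, edgeR adjusted p = 0.702). Ctgf was called higher with tumor as a block, as given above, although only tumor 2 was higher. With a clustering resolution of 1.5 for all cells, which changed the composition of the states, the difference was 2.38 (adjusted p = 0.0196).

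Cyr61 (ENSMUSG00000028195, chr3:145646976-145649981, minus strand) was at 303 and 432 CPM in Serpine2 cells of sorted CAF 1 and 2 and at 456 and 502 CPM in those of all live 1 and 2, against 351 and 240.0 CPM in Sema3c inflammatory-like cells of sorted CAF 1 and 2 and 179 and 172 CPM in Cxcl13 cells of sorted CAF 2 and all live 2. The groups overlapped by 1 library, and the difference of 0.93 ± 0.31 was not called (edgeR adjusted p = 0.233), though both tumors were higher (411 against 231 CPM and 437 against 206 CPM). The Gpnmb cells had 617 CPM of Cyr61 in sorted CAF 1 and 498 CPM in all live 1, and the highest summed dissociation genes of the fibroblast subclusters (16530 and 15615 CPM). Cyr61 and Ctgf are immediate early genes themselves, and the part of tissue handling in their levels was not tested. Against ductal epithelial-like cells Ctgf was higher in fibroblast-like cells (338 and 225 CPM against 6.13 and 65.1 CPM; log2 3.03 ± 0.88, adjusted p = 0.0403), a call lost without either fibroblast-like sum (adjusted p 0.105 and 0.133) or with cells of high doublet score kept (0.0844). Cyr61 was higher as well (459 and 303 CPM against 40.2 and 80.9 CPM; log2 2.59 ± 0.42, adjusted p = 0.00391). Blood endothelial-like cells of all live 1 and 2 had 529 and 345 CPM of Cyr61 and 163 and 243 CPM of Ctgf, in the range of the fibroblast-like cells. Macrophage or monocyte-like sums were low in both genes, with 0.898 CPM (3 UMIs) and 0.517 CPM (3 UMIs) of Ctgf and 2.10 and 1.03 CPM of Cyr61, and both were called (log2 8.40 ± 1.23, adjusted p = 0.00188, and 7.71 ± 0.55, adjusted p = 0.000219).

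Pericytes, the mural cells of small vessels, were present in number only in tumor 2, with 58 pericyte-like cells in sorted CAF 2 and 19 in all live 2 (4 in sorted CAF 1), so their levels have no replicate check and are given as ratios to the 878 fibroblast-like cells of sorted CAF 2 with intervals for counting error. Postn was the one member that was clearly higher in this library, as given above. The 19 pericyte-like cells of all live 2 made up 0.570% of its cells and held 21.5% of its Postn and 17.2% of its Ctgf UMIs. Its fibroblast-like cells, 3.45% of the cells, held 76.3% and 43.6%. Per cell both genes were thus higher in the pericyte-like cells of all live 2, and the other members were lower. The values that follow are those of sorted CAF 2. Ctgf was at 264 against 226 CPM, with an interval of 0.978 to 1.39 that includes equality. Sparc, at 7475 against 9906 CPM, was lower by a small factor (ratio 0.755, 0.731 to 0.779), as was Thbs1 (283 against 405 CPM, ratio 0.700, 0.591 to 0.824). Tnc (149 against 311 CPM), Thbs2 (54.8 against 119 CPM) and Cyr61 (166 against 301 CPM) had ratios between 0.462 and 0.552. Cthrc1 was at 45.3 against 424 CPM (ratio 0.107, 0.0684 to 0.159) and Spp1 at 26.4 against 841 CPM (ratio 0.0314, 0.0172 to 0.0528), the lowest ratio of the 10.

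Sorting was examined last, sorted CAF against all live libraries. Over all cells no gene of 14031 was called by edgeR (0%; 539 at an unadjusted p under 0.05, none of them a member), while DESeq2 called 437, 5 higher and 432 lower, and no member. The share of fibroblast-like cells differed between the tumors' fractions, with 174 of 1386 cells in sorted CAF 1 and 138 of 1903 in all live 1, against 878 of 1210 in sorted CAF 2 and 115 of 3333 in all live 2. In tumor 2, whose sorted CAF library was mostly fibroblast-like, Tnc was at 238 CPM in sorted CAF 2 against 12.4 CPM in all live 2, Postn at 576 against 43.6 CPM and Sparc at 7539 against 628 CPM, and 8 members were 7.18-fold to 20.1-fold higher. How many of all genes rose as far was not counted, so the 8 are no result about the members. In tumor 1 Tnc was at 6.70 CPM in sorted CAF 1 against 15 CPM in all live 1, Postn at 29.0 against 17.9 CPM and Sparc at 742 against 608 CPM. Thbs1 was lower in the sorted CAF library in both tumors (30.2 against 220.2 CPM and 338 against 1227 CPM; log2 -2.10 ± 1.39, not called), and Spp1 was nearly equal (4140.5 against 3841 CPM and 2746 against 2623 CPM). In sums over a whole library, more cells of a type and more RNA per cell cannot be told apart.

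Within fibroblast-like cells alone, no gene of 8660 was called by edgeR (0%; 66 at an unadjusted p under 0.05, no member among them) and DESeq2 called 19, all lower and no member. Of the 10 members 9 differed by at most 0.19 in either direction on the log2 scale, with standard errors of 0.30 to 0.51. Spp1 had the widest difference, -0.93 ± 0.87, and opposite directions in the tumors: 1624 CPM in sorted CAF 1 against 4318 CPM in all live 1, and 841 CPM in sorted CAF 2 against 443 CPM in all live 2. Tnc, Thbs2 and Cthrc1 also ran in opposite directions, with sorted CAF to all live ratios of 0.649, 0.735 and 0.653 in tumor 1 and 1.48, 1.47 and 1.42 in tumor 2, and the ratios of Cyr61 were 1.23 and 0.911. The other 5 members ran the same way in both tumors, with ratios between 0.954 and 1.18. With tumor as a block 85 genes were called (0.982%), none of them a member.

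**Figure D5:**
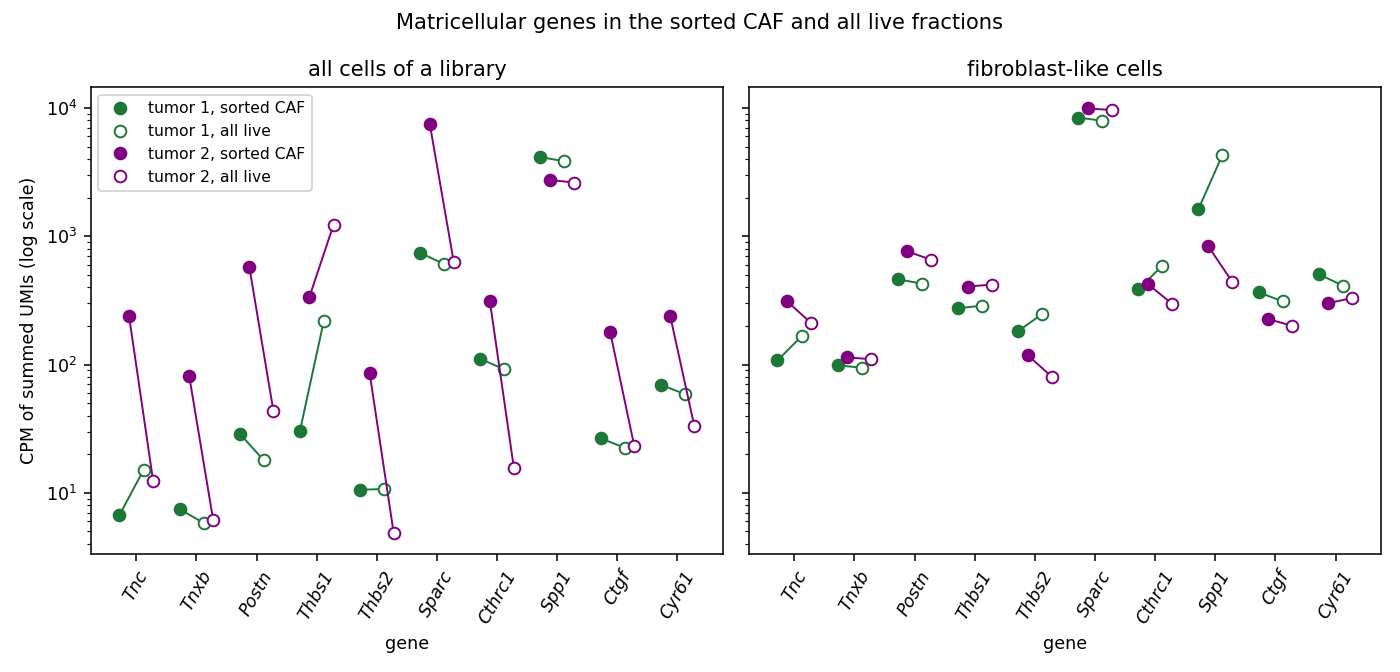
CPM of summed UMIs (log scale) of each gene in sorted CAF (filled) and all live (open) fractions, joined by tumor (green tumor 1, purple tumor 2), over all cells (left) and fibroblast-like cells (right). Over all cells the purple lines of most genes are steep, as for Tnc with 238 against 12.4 CPM, and within fibroblast-like cells the lines are shorter, with Spp1, Tnc, Thbs2, Cthrc1 and Cyr61 of opposite slope in the tumors.

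Genes around the 10 members were followed as lists. Of 24 related secreted matricellular proteins, 18 were tested between classes, and 15 were higher in fibroblast-like than in ductal epithelial-like cells (median log2 4.50, against -0.06 over all genes tested), among them Fbln5, a fibulin of elastic fibres, with 65.7 and 55.4 CPM against 0.0560 CPM (2 UMIs) and 0.263 CPM (1 UMI). Against macrophage or monocyte-like cells 14 were higher and 1 was lower, Tgfbi (log2 -5.81 ± 0.85, adjusted p = 0.00191). Against mesothelial-like cells 2 of the 18 were higher, Wisp2 and Sparcl1, and 0 lower (median log2 1.33, all genes 0.006). Of all genes tested, 0.359% were higher and 0.439% lower than in mesothelial-like cells. Between the states 16 were tested and only Fbln5 was called, lower in the Serpine2 subcluster with 23.3 and 26.8 CPM against 180 and 119 CPM in tumors 1 and 2 (log2 -2.56 ± 0.35, adjusted p = 0.0135; list median -0.32, all genes -0.01). The block gave 2 of the 16 higher and 6 lower between the states. With it 16 of the 18 were higher than in ductal cells and 3 higher than in mesothelial-like cells.

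Receptors of the members were called in both directions. Against ductal cells 6 of 19 tested were higher in fibroblast-like cells, among them Lrp1, an endocytic receptor of thrombospondins (log2 4.56 ± 0.57, adjusted p = 0.00159), and 1 was lower, Itgb6, an epithelial integrin subunit (log2 -5.28 ± 1.31, adjusted p = 0.0274). Against macrophages 5 were higher and 5 lower, the lower ones including the leukocyte integrin subunits Itgb2 (adjusted p = 0.000219) and Itgam (adjusted p = 0.000427). Of all genes tested, 14% were higher and 9.4% lower than in ductal cells, and 16.4% and 10.9% than in macrophages. Against mesothelial-like cells 1 of the 19 receptors was higher, Itgb5, and 0 were lower (0.359% and 0.439% of all genes). Between the states Cd36, a thrombospondin receptor, was lower in the Serpine2 subcluster at 0 and 1.03 CPM against 9.61 and 16.9 CPM in tumors 1 and 2 (edgeR adjusted p = 0.0376). The tumor 1 values rest on few UMIs, as 3 counts would be 7.21 CPM in its inflammatory-like sum. None of the other 14 receptors tested was called. Between the states 3 of these 15 were higher and 3 lower with the block (5.91% and 7.43% of all genes). With it 7 of the 19 were higher and 2 lower than in ductal cells (17.6% and 13% of all genes). Of the 19 YAP and TEAD target genes, none of 15 tested was called between states (median log2 0.06), while with tumor as a block 4 were higher and 3 lower. Of the 19 tested between classes, 3 were higher and 3 lower in fibroblast-like than in ductal cells (5 and 4 with the block; 14% of all genes were higher and 9.4% lower without it), where Axl, a receptor kinase, had a log2 difference of 2.28 (adjusted p = 0.00703) and Ankrd1, a nuclear and sarcomeric ankyrin repeat protein, of -5.08 (adjusted p = 0.00180). Against macrophages 9 of these 19 targets were higher and 2 lower, with 16.4% and 10.9% of all genes. Against mesothelial-like cells 1 of the 19 targets was higher, F3, and 0 were lower. Of 20 dissociation and immediate early genes, 1 of 19 tested was called between states, Zfp36, lower in the Serpine2 subcluster (log2 -1.53 ± 0.31, adjusted p = 0.0486; list median -0.73), and with tumor as a block 8 were lower. No gene of the 4 lists was called between sorted CAF and all live libraries by edgeR without the block, over all cells or within fibroblast-like cells. With tumor as a block 1 of 13 YAP and TEAD targets was higher in the fibroblast-like cells of the sorted CAF libraries, Igfbp3 (log2 0.97 ± 0.18, adjusted p = 9.31e-06), a gene outside the naming rule that was chosen after its value was seen.

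Across 40 sums of class, fibroblast subcluster and library, the genes with the most similar pattern were given by Pearson's r of log2(CPM + 1), as a description over sums that share libraries and depth. Tnxb was closest to Ogn and Clec3b (r = 0.96 each), Clec3b being a marker of the inflammatory list, and Tnc to Hs6st2 (r = 0.86). Postn was closest to Naalad2 (r = 0.96), Thbs2 to Col12a1 (r = 0.95), a collagen of the myofibroblast list, Sparc to Fstl1 and Bgn (r = 0.97 each), and Cthrc1 to Sdc2 (r = 0.93). Ctgf was closest to Nr2f2 (r = 0.91) and Cyr61 to Fkbp9 (r = 0.95). Thbs1 was closest to Ifitm3 (r = 0.83) and Spp1 to Mif (r = 0.77), the lowest of the 10. Among the members the closest pair was Postn and Thbs2 (r = 0.90), followed by Ctgf and Cyr61 (r = 0.89).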

How the data were processed

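Cells of 2 KPC tumors, each split into sorted CAF and all live fractions, were profiled by droplet 3′ RNA sequencing. Per the submitters' processing notes the authors used CASAVA 1.4 and Cell Ranger 2.0.0 with mm10. The deposited matrices hold raw UMI counts per gene and barcode, beside gene and barcode name tables.

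Of 8282 barcodes, 7984 passed a minimum of 500 genes and a mitochondrial share of no more than 10%. A doublet caller's automatic cutoff marked 27 (0.338%), which was taken as not working, so the 152 highest-scored cells (0.8% per 1000 barcodes in each library) were left out. Scaling to 10000, 2000 variable genes, 30 components, 15 neighbours and Leiden resolution 1 gave 26 clusters, with 1294 cells unnamed. Fibroblast-like cells were clustered again (1000 genes, 20 components, resolution 0.5). Members, related lists, mitochondrial and ribosomal genes were left out of clustering. Names required at least 3 markers at 2-fold in 20% of cells. Software was Python 3.11.15, scanpy 1.11.5, scipy 1.17.1, igraph 0.11.9, matplotlib 3.10.9 and R 4.3.3.

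Counts were summed per class and library or tumor and tested with edgeR 4.0.16 (quasi-likelihood, TMM scaling, Benjamini-Hochberg adjusted p under 0.05; limma 3.58.1), with DESeq2 1.42.0 as an alternative. The edgeR step was tested on simulated sums drawn independently of each other, with no difference between tumors. That run does not cover sums of 1 tumor that deviate together. Levels by library are given for sums of at least 20 cells. The fit without a tumor block was used. Fractions of 1 tumor share their source by the study's design, and same-tumor sums deviated together (r = 0.638 for libraries, 0.668 for fibroblast-like sums, 0.533 for states and 0.316 for fibroblast-like with ductal sums), so the blocked value is given where it changes a member's call. For the related lists it is given for part of the comparisons. Shares of cells were also computed after thinning to 2000 UMIs per cell. Intervals are 95% and cover counting error only, and the floor for a count of 0 is 3 counts. Similar genes are the 3 with the highest r among genes at 10 CPM or more in any sum, and of each related list at most 2 higher and 2 lower called genes per comparison are named. Members and lists were chosen with earlier results of these data known.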

Additional observations from a re-analysis of the deposited data

How the results depend on the processing

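Of the members' log2 differences under the alternatives, 566 kept their direction and their side of the threshold, 23 became called, 17 lost the call and 34 turned direction, none of the last being a called difference. Genes called by the alternatives were as follows, and the cause was not tested unless the alternative itself used fewer samples or cells. DESeq2 called 437 genes between fractions, 19 within fibroblast-like cells and 429 against mesothelial-like cells. Without the low-count filter 66 genes were called within fibroblast-like cells, 590 between states and 840 against mesothelial-like cells. With tumor as a replicate block 85, 1289 and 246 were called in these 3 comparisons. Between states, Leiden resolution 1.5 gave 299, cells of high doublet score kept gave 100, fibroblast resolution 0.8 gave 116, and cells with no keratin or Lyz2 UMI, chosen after seeing the data, gave 455. With all live libraries only, 1414 genes were called against ductal and 2051 against macrophage cells. The mesothelial-like group then held tumor 1 alone, as the 12 mesothelial-like cells of all live 2 were under the limit of 20. Leaving out 1 sum gave 19 to 65 genes within fibroblast-like cells, 23 to 385 between states, 1032 to 4527 against ductal, 0 to 2 against mesothelial-like and 1724 to 2265 against macrophage cells.

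Members called between states were 8 with the block, 2 with cells of high doublet score kept, 2 at fibroblast resolution 0.8 and 2 to 4 with 1 sum left out. Against mesothelial-like cells they were 6 without the filter, 5 by DESeq2, 2 with the block and 1 at Leiden resolution 1.5. The block changed no other member's call.

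Uncalled log2 differences that turned were these. Between fractions, Spp1 was -0.0038 with the block, and with 1 library left out Tnc ran from -1.09 to 3.97, Postn from -0.14 to 4.08 and Spp1 from -0.38 to 0.31. Within fibroblast-like cells, with 1 library left out, Tnc ran from -0.87 to 0.76, Tnxb from -0.12 to 0.22, Postn from -0.30 to 0.58, Thbs1 from -0.44 to 0.30, Thbs2 from -0.69 to 0.82, Sparc from -0.14 to 0.26, Cthrc1 from -0.49 to 0.38, Spp1 from -1.78 to 1.398, Ctgf from -0.13 to 0.49 and Cyr61 from -0.26 to 0.39. Between states Sparc was 0.078 at Leiden resolution 1.5. Against mesothelial-like cells Thbs1 was 0.0014 with RLE scaling, 0.012 without the filter, 0.16 with the block, 0.074 at Leiden resolution 1.5 and 0.96 in all live libraries only. In the last setting the mesothelial-like group was the sum of tumor 1 alone, as all live 2 held 12 such cells. With 1 sum left out Thbs1 ran from -0.59 to 0.96, Tnc from -0.18 to 2.83 and Spp1 from -0.27 to 1.51. A sum left alone in its group was assumed to vary like the others. Classes of few cells limit what depth can show: tumor 1 gave 56 Serpine2 and 57 inflammatory-like cells.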
